A study of Mus musculus with 13 samples.

Results

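Midbrain RNA of MPTP-treated mice that had lost Ripk3 in astrocytes was set against that of MPTP-treated mice that had kept it. The samples were chosen by the genotype and treatment of their labels and by no measured value, and numbered 7 of the 13 in the series. Cre+ MPTP stands for 4 Ripk3fl/fl Aldh1l1Cre+ mice and Cre- MPTP for 3 Ripk3fl/fl Aldh1l1Cre- mice. Both groups, and the 3 Cre- Saline and 3 Cre+ Saline mice used for reference, were males of 8 to 12 weeks. All carried the floxed Ripk3 allele. The paper's methods give tamoxifen (60 mg/kg for 5 days, at least 1 week before) for mice with the Cre transgene. They do not say whether Cre- mice received it, so exposure to the drug cannot be taken as matched between the genotypes. MPTP was injected at 20 mg/kg on 5 successive days, and tissue was taken 3 days after the last dose. Recombination was driven by Aldh1l1-Cre/ERT2, a tamoxifen-inducible recombinase under an astrocyte promoter, so that neurons, microglia and endothelial cells were meant to keep Ripk3. Each library was made from 1 mouse and from whole midbrain, in which fewer cells of a type and less RNA per cell cannot be told apart.

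RIPK3 is a kinase best known for necroptosis, an inflammatory form of cell death in which it acts on MLKL, and it can also drive inflammatory transcription without killing the cell. MPTP is taken up by astrocytes and converted there to MPP+, which enters dopaminergic neurons through the dopamine transporter and poisons their mitochondria. Astrocytes respond to injury by making the filament protein GFAP, acute-phase proteins, chemokines and complement, while microglia lose the receptors that mark their resting state. The question of the comparison was which parts of the midbrain transcriptome after MPTP differ when astrocytes lack Ripk3.

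Ripk3 itself (chromosome 14, 55784996 to 55788857 in GRCm38) was close to the limit of detection. Its counts were 6, 18 and 40 in the Cre- MPTP libraries and 19, 4, 8 and 10 in the Cre+ MPTP libraries, or 0.65, 0.713 and 1.32 CPM against 0.702, 0.224, 0.355 and 0.382 CPM (counts relative to the TMM-scaled total of the library). The groups overlapped through Cre+ MPTP replicate 1, and the log2 fold change of -1.11 (SE 0.451) was not past the threshold (adjusted p = 0.224 in edgeR). Without Cre- MPTP replicate 1 and Cre+ MPTP replicate 4 it was -1.21 (adjusted p = 0.392 in edgeR). These counts cover the whole gene and all cells of the midbrain and could not check the genotype of a mouse. The dopaminergic markers that define the tissue were present in all 7 libraries, with Th at 31.9 to 51.4 CPM and Slc6a3, the dopamine transporter, at 10.8 to 66.4 CPM.

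Both of these libraries stood apart from the rest. Cre- MPTP replicate 1 had the lowest total, 11489150 counts against 17713289 to 29397278 in the other MPTP libraries, and 1.12% of its counts came from mitochondrial genes, against 4.18% to 6.06% in the others. Its levels also followed the GC content of the transcripts. The 20% of genes with the lowest GC content lay 0.75 below the mean of the 13 libraries (median, log2 scale) and the 20% with the highest lay 1.01 above it, whereas in the other MPTP libraries the same medians stayed between -0.18 and 0.15. Cre+ MPTP replicate 4 held heart muscle RNA. The 18 muscle genes examined summed to 9496 CPM there and to 110.8 to 290.4 CPM in the other MPTP libraries, and the heart myosin Myh6 had 3300 CPM against 3.14 to 23.8 CPM. The muscle genes had a median log2 fold change of 6.78 with all libraries and of 1.16 without both, and 0 of 17 tested with all libraries and 0 of 16 tested without both were called.

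**Figure D1:**
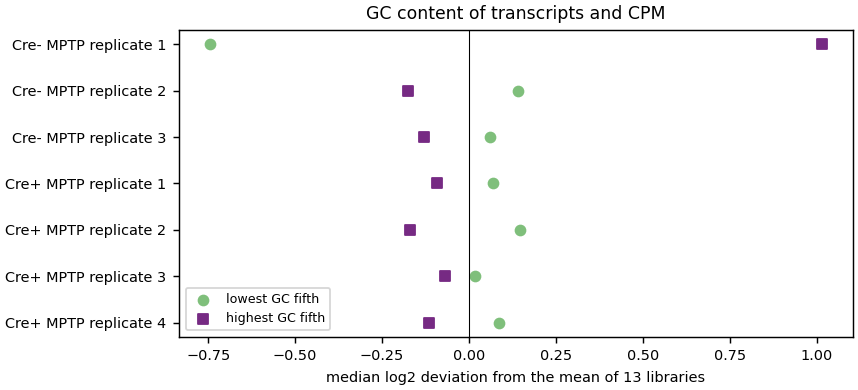
Median deviation of log2 CPM from the mean of 13 libraries (x axis, log2 scale) for the 20% of genes with the lowest (circles) and highest (squares) transcript GC content, in each MPTP library. Cre- MPTP replicate 1 runs from -0.75 to 1.01, and the medians of the other 6 libraries lie between -0.18 and 0.15.

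Among 19360 genes tested with all libraries, 100 (0.517%) were higher and 199 (1.03%) were lower in Cre+ MPTP than in Cre- MPTP mice at an adjusted p under 0.05 (edgeR, quasi-likelihood test, Benjamini-Hochberg over all genes). Without both libraries 211 (1.1%) were higher and 346 (1.81%) were lower among 19148 genes tested, and these included 91 of the 100 and 184 of the 199. The median log2 fold change of the genes called lower was -1.77 with all libraries and -1.50 without both, and that of the genes called higher was 1.41 and 1.29. Over all genes the median was 0.03 and 0.01. The calls rested on the spread shared by all 4 groups. The biological coefficient of variation was 0.514 in Cre- MPTP and 0.246 in Cre+ MPTP libraries, but 0.160 in Cre- Saline and 0.0876 in Cre+ Saline libraries. It dropped to 0.114 among Cre- MPTP libraries without replicate 1 and to 0.169 among Cre+ MPTP libraries without replicate 4. When the 7 MPTP libraries were fitted on their own, no gene was called by edgeR (0 of 18480), the smallest adjusted p was 0.185 and 1553 genes had an unadjusted p under 0.05, while DESeq2 called 138 genes higher and 265 lower and limma voom with quality weights 367 and 583. On the 5 MPTP libraries left when both were removed, edgeR called 131 genes higher and 188 lower.

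**Figure D2:**
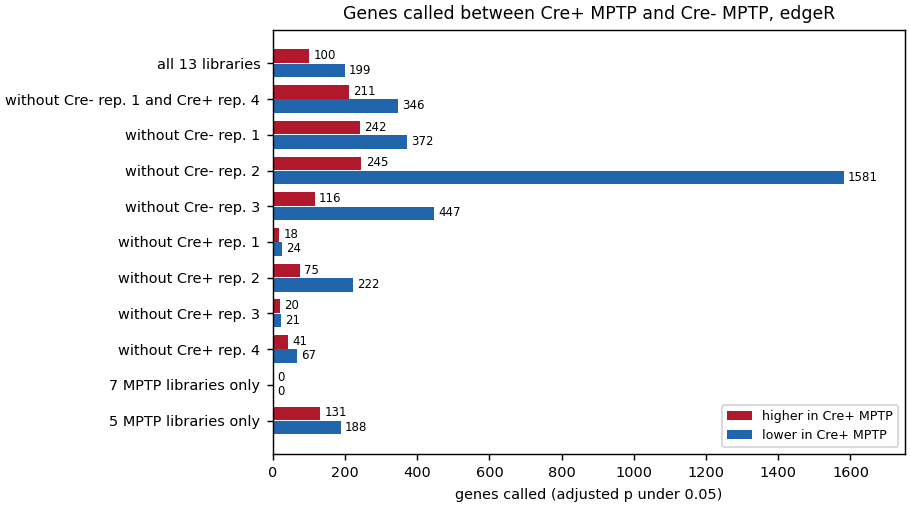
Number of genes called higher (red) and lower (blue) in Cre+ MPTP than in Cre- MPTP libraries at an adjusted p under 0.05 (x axis), for edgeR fits that use all libraries, leave out 1 or both of the libraries named, or use MPTP libraries alone. Counts run from 0 with the 7 MPTP libraries on their own to 245 higher and 1581 lower without Cre- MPTP replicate 2.

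Single libraries moved these counts widely. Without Cre- MPTP replicate 2, which leaves replicate 1 as 1 of the 2 controls, 1581 genes were called lower, and their median GC content was 55.9% against 49.6% over all genes. The fits that dropped Cre+ MPTP replicate 1 or replicate 3 gave 18 and 24 or 20 and 21 genes higher and lower. The genes described first are therefore those called in the same direction with all libraries, without each of the 7 MPTP libraries in turn, and without both libraries together. There were 18 such genes higher (0.093% of all tested) and 19 lower (0.0981%). The 15 with the largest difference in each direction were named, and all 30 were also called by edgeR on the 5 MPTP libraries, by DESeq2 and limma voom on the 7 MPTP libraries, without each Saline library in turn and after the GC trend was removed. None of the 30 was called by edgeR on the 7 MPTP libraries alone.

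The genes that stayed higher in Cre+ MPTP mice were led by receptors of resting microglia. P2ry12, the purinergic receptor by which microglial processes sense nucleotides (chromosome 3, 59216272 to 59262871), had 2.49, 3.41 and 3.57 CPM in Cre- MPTP mice and 13.4, 15.3, 12.7 and 14.4 CPM in Cre+ MPTP mice. The groups lay far apart, with a log2 fold change (Cre+ minus Cre-) of 2.12 (SE 0.188, adjusted p = 0.00142 in edgeR), and of 1.98 without both libraries (adjusted p = 0.000323 in edgeR). All Cre+ MPTP values were nevertheless below the Saline range of 18.1 to 26 CPM. P2ry12 lies within Med12l on the opposite strand, and its counts may hold reads of that gene if strand was not used in counting.

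Siglech, a sialic acid-binding lectin of microglia (chromosome 7), had 0.542, 2.57 and 1.02 CPM in Cre- MPTP against 10.9, 7.89, 11.1 and 9.42 CPM in Cre+ MPTP mice. The difference of 2.75 (SE 0.384, adjusted p = 0.00725 in edgeR) was 2.5 without both libraries. Fcrls, an Fc receptor-like protein found on microglia (chromosome 3), had 0.975, 3.49 and 2.74 CPM against 19, 10.7, 16.2 and 20.2 CPM (2.72, SE 0.357, adjusted p = 0.00666 in edgeR, and 2.31 without both). The 4 Cre+ MPTP values of Siglech lay within the Saline range of 7.56 to 11.8 CPM, whereas for Fcrls, with a Saline range of 11 to 16.6 CPM, 2 lay above it and 1 below.

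Several of the other rises were genes of brain endothelium. Slco1c1, which carries thyroid hormone across the blood-brain barrier (chromosome 6), had 3.36, 15.4 and 12 CPM in Cre- MPTP and 57.2, 43.5, 60.1 and 51.8 CPM in Cre+ MPTP mice. On the log2 scale the difference was 2.34 (SE 0.359, adjusted p = 0.0113 in edgeR) with all libraries, and 1.96 (SE 0.153, adjusted p = 0.000139 in edgeR) without both, the smallest adjusted p of that fit. Slc38a5, a glutamine transporter, had 0.975, 0.911 and 1.22 CPM against 6.73, 3.36, 8.12 and 5.95 CPM. Tek, the angiopoietin receptor TIE2, had 3.36, 7.37 and 7.72 CPM against 23.3, 17.6, 25.2 and 26.3 CPM, and Itm2a, a membrane protein of endothelium, had 6.39, 18.3 and 14.3 CPM against 45.3, 49.7, 55.7 and 43.2 CPM. The log2 fold changes of these 3 genes were 2.53, 1.88 and 1.88 with all libraries and 2.5, 1.55 and 1.62 without both. Edn3, the vasoactive peptide endothelin 3 (chromosome 2), had 1.3, 1.07 and 0.891 CPM against 5.06, 3.69, 4.3 and 4.27 CPM, a difference of 2.03 on the log2 scale (SE 0.227, adjusted p = 0.00557 in edgeR) that was 2.15 without both libraries.

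The remaining rises included Padi2, a peptidylarginine deiminase of glia that acts on myelin basic protein, with 17.1, 23.1 and 27.8 CPM in Cre- MPTP and 64, 53, 57.5 and 54.9 CPM in Cre+ MPTP libraries (log2 fold change 1.33, adjusted p = 0.00666 in edgeR, and 1.19 without both). Cmtm5, a membrane protein of myelinating glia, had 19.5, 27.6 and 27.3 CPM against 53.2, 54.4, 61.5 and 48.2 CPM (1.13, adjusted p = 0.00666 in edgeR, and 1.03 without both). Ly6g6f, Aif1l, Srpk3 and 2 transcripts without a protein name, B230206H07Rik and Gm45767, had log2 fold changes of 1.30 to 2.49, and of 1.10 to 2.34 without both. B230206H07Rik and Gm45767 overlap Eps8l2 and Pllp on the opposite strand, and their counts are uncertain for that reason. The groups do not overlap in these 15 by the way they were chosen. Cre- MPTP replicate 1 was the lowest control in 13 of the 15.

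The genes that stayed lower were led by inflammatory receptors and signalling proteins. Irak3, a negative regulator of IL-1 and Toll-like receptor signalling (chromosome 10, 120141648 to 120202130), had 17.1, 9.74 and 12 CPM in Cre- MPTP and 1.18, 3.41, 1.64 and 2.29 CPM in Cre+ MPTP mice. On the log2 scale the difference was -2.61 (SE 0.352, adjusted p = 0.0072 in edgeR) with all libraries and -2.43 without both. It overlaps Tmbim4 on the opposite strand. Icam1, the endothelial and glial ligand of leukocyte integrins (chromosome 9, 21015985 to 21028817), had 57.3, 52.3 and 68.9 CPM against 8.02, 19.8, 5.5 and 8.17 CPM (-2.53, SE 0.344, adjusted p = 0.0072 in edgeR, and -2.48 without both). In every Cre+ MPTP library Icam1 was above the Saline range of 2.36 to 3.83 CPM. Cre+ MPTP replicate 2 was the highest of the group for both genes.

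Gpr84, a fatty acid receptor induced in activated myeloid cells (chromosome 15), had 16.1, 10.7 and 11.7 CPM against 2.03, 3.58, 2 and 1.45 CPM (-2.51, SE 0.285, adjusted p = 0.00557 in edgeR, and -2.16 without both). Cd14, the lipopolysaccharide co-receptor, had 22.2, 14.8 and 20.1 CPM against 2.77, 7.44, 3.5 and 4.39 CPM, a log2 fold change of -2.08 with all libraries and of -1.96 without both. Tnfrsf1a, the receptor through which TNF can engage RIPK1 and RIPK3, had 102, 43.1 and 42 CPM against 14.5, 20.9, 15.1 and 17.8 CPM. The fall of Tnfrsf1a was -1.87 with all libraries and -1.35 without both (adjusted p = 0.00907 and 0.000396 in edgeR), since Cre- MPTP replicate 1 was far above the other 2 controls. Pik3r5, a regulatory subunit of a phosphoinositide 3-kinase of leukocytes, had 12.8, 12.3 and 13 CPM against 3.62, 4.36, 2.44 and 2.17 CPM (-2.01, adjusted p = 0.00725 in edgeR, and -1.87 without both). Ncf1, a subunit of the phagocyte NADPH oxidase, had 49.1, 21.9 and 30.1 CPM against 10.3, 12.4, 9.76 and 8.97 CPM. The log2 fold change of Ncf1 was -1.70 with all libraries and -1.27 without both, and Gtf2ird2 overlaps it on the opposite strand.

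Gfap, the intermediate filament of reactive astrocytes, had 3170, 1240 and 1620 CPM in Cre- MPTP mice and 385, 655, 331 and 378 CPM in the Cre+ MPTP libraries. Without both libraries its log2 fold change went from -2.20 to -1.65 (SE 0.242, adjusted p = 0.00244 in edgeR). Fkbp5, a co-chaperone of the glucocorticoid receptor that glucocorticoids induce, had 182, 128 and 128 CPM against 28.4, 54.3, 23.8 and 29 CPM, and its log2 fold change was -1.86 without both libraries (adjusted p = 0.00108 in edgeR). For both genes Cre+ MPTP replicate 2 lay between the other 3 Cre+ MPTP libraries and the controls. C4b, complement component 4 (chromosome 17, 34728380 to 34743882), had 294, 220 and 325 CPM against 97.8, 94.7, 95.1 and 84.6 CPM, with a difference of -1.59 on the log2 scale (SE 0.18, adjusted p = 0.00557 in edgeR) and of -1.51 without both. All 4 Cre+ MPTP values of C4b were above the Saline range of 36 to 59.6 CPM. C4b and Ifitm2 have close paralogs, and their counts may be shared with these. Ptges, the prostaglandin E synthase, had 23.7, 18.3 and 19.7 CPM against 5.4, 7.5, 7.45 and 4.43 CPM (-1.73, SE 0.205, adjusted p = 0.00563 in edgeR, and -1.50 without both). The other falls among the 15 were those of Glipr2, Cxcl16, Ifitm2 and Map3k8, with log2 fold changes of -1.95 to -1.44, and of -1.85 to -1.52 without both. Cxcl16 overlaps Zmynd15 and Icam1 overlaps Gm47079 on the opposite strand.

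**Figure D3:**
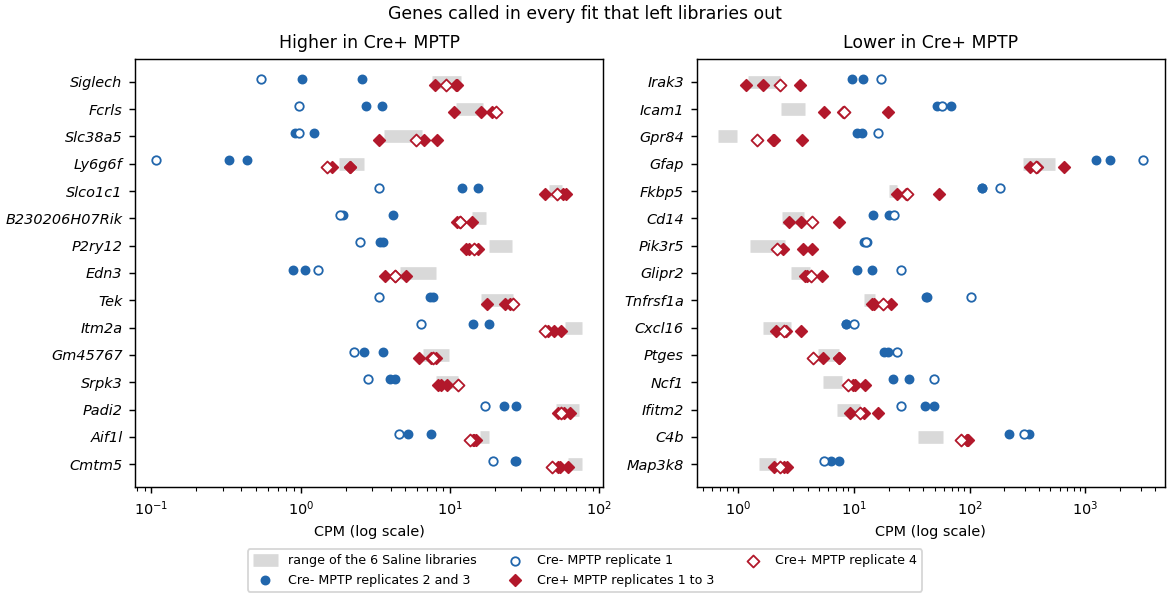
CPM on a log axis of the 15 named genes higher (left) and the 15 lower (right) in Cre+ MPTP mice that were called in every fit that left libraries out. Blue circles are Cre- MPTP libraries and red diamonds Cre+ MPTP libraries, open symbols are Cre- MPTP replicate 1 and Cre+ MPTP replicate 4, and grey bars span the 6 Saline libraries. The red and blue symbols are apart in all 30 genes by the way these were chosen, as for P2ry12 (2.49 to 3.57 against 12.7 to 15.3 CPM).

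Promoters were read from RefSeq (GRCm38.p6) for the named genes that the table holds, 14 of the 15 rises and 11 of the 15 falls, as the 250 bases before the start site. They are shown because these genes moved together, and they were searched on both strands for 6 motifs of factors known in inflammation and glia. The letters were TTCNNNGAA for STAT, TTGCNNAA for C/EBP, GGANTTTCC for NF-kappaB, ACANNNTGT for the glucocorticoid receptor, TGANTCA for AP-1 and GAAANNGAA for interferon response factors. Of the 13180 promoters of tested genes, 5.82% held the STAT letters, 7.44% C/EBP, 1.1% NF-kappaB, 3.76% the glucocorticoid receptor, 4.44% AP-1 and 6.19% interferon response. Of the 11 falls, 3 held STAT (Icam1, Tnfrsf1a and Ncf1), 3 interferon response (Irak3, Ncf1 and Ifitm2) and 1 NF-kappaB (Icam1), and 0 held the others. Of the 14 rises, 3 held C/EBP (Siglech, Slc38a5 and P2ry12), 2 STAT, 1 the glucocorticoid receptor and 1 interferon response. The windows of Gpr84, Fkbp5, Ptges and Edn3 held none, and the RefSeq start sites of Fkbp5 and Ptges lie 31375 and 26566 bases from the gene start of GENCODE M21. The sequences below run 5′ to 3′ with matches in capitals. They are the rise and the fall with the smallest p that held a match, P2ry12 (chr3:59262986-59263235, minus strand, C/EBP) and Irak3 (chr10:120202131-120202380, minus strand, interferon response), and Icam1 (chr9:21015690-21015939, plus strand, NF-kappaB and then STAT), which was chosen after its match was seen.
P2ry12: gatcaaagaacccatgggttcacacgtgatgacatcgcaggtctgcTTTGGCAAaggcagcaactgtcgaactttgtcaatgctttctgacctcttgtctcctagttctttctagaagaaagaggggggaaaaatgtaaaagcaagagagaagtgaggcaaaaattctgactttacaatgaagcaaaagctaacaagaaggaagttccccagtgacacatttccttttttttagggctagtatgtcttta
Irak3: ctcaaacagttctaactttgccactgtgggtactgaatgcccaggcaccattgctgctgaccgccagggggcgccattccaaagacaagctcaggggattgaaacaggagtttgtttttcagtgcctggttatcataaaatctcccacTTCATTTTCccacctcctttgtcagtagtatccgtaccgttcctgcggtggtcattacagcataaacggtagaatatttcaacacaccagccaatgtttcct
Icam1: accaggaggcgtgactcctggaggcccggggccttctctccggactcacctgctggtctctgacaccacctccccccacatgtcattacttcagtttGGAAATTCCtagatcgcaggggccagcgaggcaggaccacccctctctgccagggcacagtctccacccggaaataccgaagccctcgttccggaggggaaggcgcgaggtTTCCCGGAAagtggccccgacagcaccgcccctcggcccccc
A match is a description of letters, and binding was not measured.

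The Cre+ MPTP libraries did not contribute equally. Replicate 2 was the highest of the 4 in 157 of the 199 genes called lower, and in 13 of the 15 named falls, so it lay nearest to the Cre- MPTP group there. It was the lowest of the 4 in 30 of the 100 genes called higher. Replicate 4, despite its muscle RNA, was inside the range of replicates 1 to 3 in 8 of the 15 named rises and 10 of the 15 named falls.

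Each library was then placed among genes that had been called without it. For these genes the library was taken as nearer to the mean of its own group or to that of the other, on log2(CPM + 0.5). Among the 42 and 41 genes called without Cre+ MPTP replicate 1 and replicate 3, those libraries were nearer their own group in all. Replicate 4 was nearer its own group in 101 of 108 genes (93.5%) and replicate 2 in 193 of 297 (65%). Cre- MPTP replicate 1 was nearer its own group in 414 of 614 genes (67.4%). Replicates 2 and 3 were so in 378 of 1826 (20.7%) and 252 of 563 (44.8%), in fits where replicate 1 weighed as 1 of the 2 controls. Among the 557 genes called without both libraries, Cre+ MPTP replicate 4 was nearer to the other Cre+ MPTP libraries in 510 (91.6%) and Cre- MPTP replicate 1 nearer to the other Cre- MPTP libraries in 391 (70.2%).

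**Figure D4:**
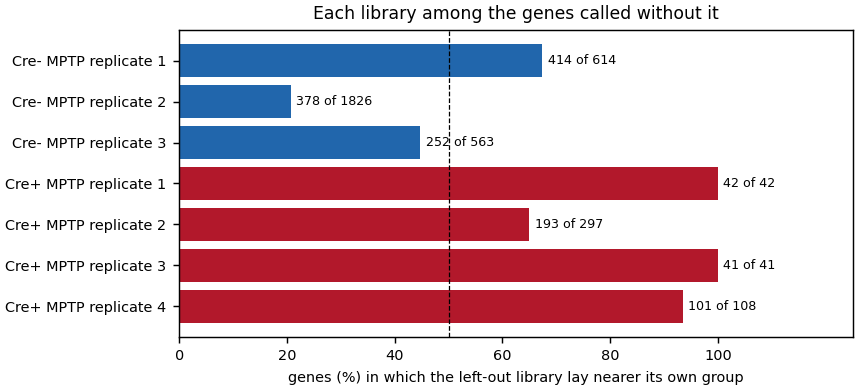
Share of genes (x axis, %) in which a left-out library lay nearer to the mean of its own group, among genes called without it. Bars are blue for Cre- MPTP and red for Cre+ MPTP libraries, the numbers give genes, and the dashed line marks 50%. Cre+ MPTP replicates 1 and 3 reach 100%, and Cre- MPTP replicate 2 has the lowest share, 20.7%.

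The genes were next described by 48 lists of cell types and pathways, of which 33 had at least 1 called member. In 21 of these all called members were lower, in 5 all were higher, and in 7 there were both. These counts depended on single Cre+ MPTP libraries. Without replicate 1 and without replicate 3 the number of calls fell by over 1.5 times in all 33 lists and reached 0 in 14 and 16 of them, and without replicate 4 it fell so in 28 lists and reached 0 in 5. Without both libraries it fell so in 0 lists and rose so in 11, and it rose so in 11, 13 and 4 lists without Cre- MPTP replicates 1, 2 and 3. In the account of the lists, a second value in parentheses after a log2 fold change is the one without both libraries. Every list count below is to be read beside the shares over all genes tested. These were 0.517% higher and 1.03% lower, and 1.1% and 1.81% without both libraries. No list was tested against these shares. Some genes are in more than 1 list, with 919 entries for 854 different genes, so the counts of the lists are not independent.

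Among homeostatic microglial genes 6 of 15 were called higher and 0 called lower, with a median log2 fold change of 0.97 against 0.03 over all genes, and 9 were higher without both libraries (median 1.15). There were 3 calls without Cre+ MPTP replicate 1 or replicate 3, and 4 without replicate 4. Besides P2ry12, Siglech and Fcrls, these were the nucleotide receptor P2ry13 (1.75, 1.56 without both), the receptor Gpr34 (2.57, 2.22 without both) and Olfml3 (1.84, 1.45 without both). Csf1r and Tmem119, which also mark microglia, had log2 fold changes of 0.38 and 0.11, and of 0.36 and 0.52 without both, and were not called. The summed level of the list was 1016, 1505 and 1805 CPM in Cre- MPTP and 1590 to 1939 CPM in Cre+ MPTP libraries, most of it from Sparc, which was not called (0.22, and -0.0048 without both).

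Among general myeloid genes 2 were called, each in the other direction. Fcgr2b, the inhibitory Fc receptor (-1.39, -1.66 without both), and Ncf1 were lower, and 0 of the 16 were higher (median -0.55). Without both libraries 3 were lower and 0 higher. There was 1 call without Cre+ MPTP replicate 1 or replicate 3, where Fcgr2b lost its call, and 8 without Cre- MPTP replicate 2. Of the 16 genes 6 had positive and 10 negative log2 fold changes. The summed level of this list was 216.3, 151.8 and 223.6 CPM in Cre- MPTP, 102.9 to 141.8 CPM in Cre+ MPTP and 74.39 to 89.25 CPM in Saline libraries. Trem2, a lipid receptor of microglia, was higher (1.27, adjusted p = 0.0417 in edgeR), but lost the call without both libraries (1.06, adjusted p = 0.0602 in edgeR) and without each of the 4 Cre+ MPTP libraries in turn. Csf1, the growth factor of microglia, was lower, at 102, 61.9 and 70.7 CPM against 36.8, 40, 39.7 and 38.3 CPM (-1.01, and -0.78 without both). Mrc1, the mannose receptor of border macrophages, was higher (1.70, and 1.40 without both).

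Neutrophil genes were low throughout, and several were lower in Cre+ MPTP mice. Of 16 genes 10 were tested, and 7 were called lower and 0 higher, with a median log2 fold change of -3.51. Without both libraries 6 of 9 tested were lower (median -2.65). Retnlg, 1 of the 7, was not tested without both and lost its call without any 1 Cre- MPTP library. A gene that passes the count filter only through the Cre- MPTP libraries can only be called lower. There were 0 calls without Cre+ MPTP replicate 3, 1 without replicate 1, 3 without replicate 4 and 4 without Cre- MPTP replicate 3. S100a8, an alarmin of neutrophils, had 4.44, 2.93 and 18.6 CPM in Cre- MPTP and 0.407, 0.951, 0.266 and 0.191 CPM in Cre+ MPTP libraries. The formyl peptide receptor Fpr2 had 4.01, 2.1 and 3.37 CPM against 0.443, 0.615, 0.266 and 0.0763 CPM, and the decoy receptor Il1r2 had 2.49, 1.66 and 4.82 CPM against 0.48, 0.951, 0.577 and 0.534 CPM. Cre- MPTP replicate 3 was the highest for S100a8 and Il1r2. The log2 fold changes of S100a8, Fpr2 and Il1r2 were -4.31, -3.18 and -2.26 with all libraries and -4.37, -2.65 and -2.31 without both. The summed level of the list was 44.65, 27.88 and 97.32 CPM in Cre- MPTP, 10.65 to 16.5 CPM in Cre+ MPTP and 7.607 to 14.09 CPM in Saline libraries. The members of the list did not behave alike. Ly6g and Elane were at or below 0.099 CPM in all 7 MPTP libraries, and Csf3r was not called (0.01, -0.38 without both). Mmp8, which was called lower, had 2.28, 1.66 and 7.39 CPM against 0.0739, 0.392, 0 and 0.0382 CPM. Retnlg, also called lower, had 1.52, 0.594 and 5.12 CPM against 0.0739, 0.0559, 0.0444 and 0.153 CPM. The part of infiltrating cells in the inflammatory genes below was not tested. Lymphocyte markers gave 0 calls among 5 genes tested, also without both, with Ighm at 0.23 (-0.045) and Trbc2 at -0.40 (-0.58).

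Astrocyte identity genes gave 1 call with all libraries, while 15 reactive astrocyte genes were lower. Among the 20 identity genes this was Grm3, a glutamate receptor (1.11, adjusted p = 0.0428 in edgeR, and 0.83 without both), and the median was 0.14. Grm3 lost its call without each of the 4 Cre+ MPTP libraries in turn. Without both libraries 3 identity genes were higher, Grm3, Slc7a10 (0.61) and Fabp7 (0.87), and 1 was lower, the connexin Gjb6 (-0.49). Aldh1l1, whose promoter drives the recombinase, had 160, 114 and 140 CPM against 92.3, 91.3, 111 and 91.2 CPM and was not called (-0.52, -0.38 without both). Of 32 reactive genes 15 were lower and 0 higher (median -1.70), and 18 were lower without both libraries (median -1.66). There were 4 calls without Cre+ MPTP replicate 1 or replicate 3, and 6 without replicate 4. Besides Gfap and Fkbp5, these included the lipocalin Lcn2 with 630, 460 and 595 CPM against 25.8, 153, 15.4 and 20.3 CPM, and the protease inhibitor Serpina3n with 291, 492 and 584 CPM against 38.5, 170, 40 and 24.1 CPM. Their log2 fold changes were -3.39 and -2.74 with all libraries, and -3.05 and -2.71 without both. The list summed to 5581, 3169 and 3661 CPM in Cre- MPTP, to 727.6, 1592, 671.7 and 764.2 CPM in Cre+ MPTP and to 561.1 to 818.1 CPM in Saline libraries.

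**Figure D5:**
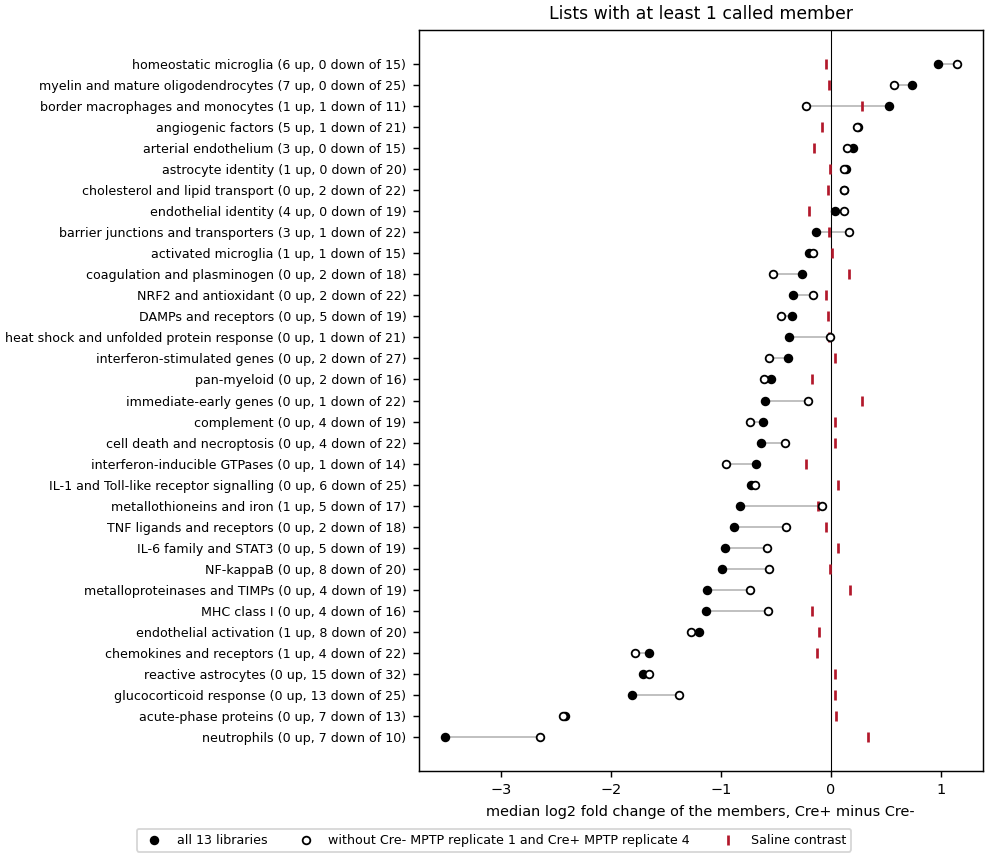
Median log2 fold change of Cre+ against Cre- mice (x axis) over the members of each list with at least 1 called member, for MPTP with all libraries (filled), for MPTP without Cre- MPTP replicate 1 and Cre+ MPTP replicate 4 (open) and for Saline (red ticks). The numbers beside the names are members called in the fit of all libraries, from 7 lower of 10 in neutrophils (median -3.51) to 6 higher of 15 in homeostatic microglia (0.97).

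Acute-phase proteins were lower in 7 of 13 members tested and higher in none (median -2.42), and in 6 of 11 without both libraries (median -2.43). Serpina3m, 1 of the 7, had 16, 40 and 75 counts in Cre- MPTP and 0, 6, 0 and 0 counts in Cre+ MPTP libraries. It passed the count filter only through the Cre- MPTP libraries and could only be called lower, and its value of -4.73 enters the first median. There were 0 calls without Cre+ MPTP replicate 1 or replicate 3, 2 without replicate 4 and 11 without replicate 2. A2m, a protease inhibitor of plasma and astrocytes, had 81.4, 109 and 90.5 CPM in Cre- MPTP and 22.2, 43.7, 20.4 and 17 CPM in Cre+ MPTP libraries (-1.86, SE 0.297, adjusted p = 0.0122 in edgeR, and -1.81 without both). Hp, haptoglobin, had 15.8, 2.34 and 7.72 CPM against 0.111, 1.01, 0.665 and 0.229 CPM (-4.13, and -3.16 without both). Among genes of the IL-6 family and STAT3, which induce these proteins, 5 of 19 were lower, and 5 without both, but 0 without Cre+ MPTP replicate 1 or replicate 3, 1 without replicate 4, and 8 or 9 without Cre- MPTP replicate 3 or replicate 2. Stat3 had 138, 133 and 114 CPM against 61.9, 85.6, 62.5 and 73.5 CPM, a log2 fold change of -0.86 that was -0.82 without both libraries. Socs3, the feedback inhibitor of STAT3, had 100, 26.9 and 28.1 CPM against 4.47, 12.6, 1.86 and 3.89 CPM, and its fall went from -3.19 to -2.16 without both. Cebpd, a transcription factor of the acute phase, was lower by a larger margin with all libraries (-4.53) than without both (-2.26), and stood at 364 CPM in Cre- MPTP replicate 1 against 31.1 and 30.1 CPM in the other controls.

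In the NF-kappaB list 8 of 20 genes were lower and 0 higher with all libraries, and as many without both. There was 1 call without Cre+ MPTP replicate 1 or replicate 3, and 2 without replicate 4. Nfkbia, the inhibitor that NF-kappaB itself induces, had 242, 75.9 and 75.7 CPM against 20.1, 38.1, 23.6 and 17.2 CPM (-2.41, and -1.49 without both). Nfkbiz had 19.9, 16.8 and 13.2 CPM against 4.95, 8.73, 4.79 and 5.27 CPM (-1.49, and -1.30 without both), and Map3k8, a kinase of the pathway, 5.53, 7.49 and 6.34 CPM against 2.66, 2.52, 2.04 and 2.29 CPM. In the list of IL-1 and Toll-like receptor signalling 6 of 25 were lower, among them the receptor Tlr2 (-1.52, -1.56 without both) and the adaptor Myd88 (-1.09, -0.76 without both). Without both libraries 10 of 24 were lower and 1, the alarmin Il33 (0.71), was higher. Of the cell death genes 4 of 22 were lower, Tnfrsf1a, the cell cycle inhibitor Cdkn1a (-3.06, -2.46 without both), the BH3-only protein Pmaip1 (-1.29, -1.18 without both) and Bcl2l1 (-0.55, -0.42 without both). Without both libraries 5 were lower, with the death receptor Fas added (-1.62). The partners of RIPK3 in necroptosis were not called, with Ripk1 at -0.49 (-0.51) and Mlkl at -0.76 (-1.07). Mlkl had 1.41, 1.47 and 2.21 CPM in Cre- MPTP against 0.961, 0.727, 0.932 and 1.41 CPM in Cre+ MPTP libraries, near the level of Ripk3.

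TNF family members gave 2 calls, both lower, among 18 genes tested, against 1.03% lower over all genes. They were Tnfrsf1a and the cytokine Tnfsf11 (-4.87). Tnfsf11 had 5.2, 0.832 and 1.58 CPM against 0.0739, 0.28, 0 and 0 CPM, and fell under the count filter without any 1 Cre- MPTP library. It passed the filter only through the Cre- MPTP libraries and could only be called lower. Without both libraries 3 of 16 TNF family members were lower. Among chemokines and their receptors 4 of 22 were lower and 1 was higher, and without both 5 of 20 and 1. Ccl5, which attracts T cells and monocytes, had 28.6, 11.8 and 26 CPM against 0.333, 3.69, 0.133 and 0.153 CPM (-4.44, adjusted p = 0.0437 in edgeR, and -3.88 without both), and Ackr1, the chemokine-binding receptor of venules, was also lower (-1.16, -1.30 without both). Cxcl12, a chemokine made constitutively in brain, was the one that was higher, at 29.6, 24 and 19.8 CPM against 43, 43.5, 41.6 and 52.7 CPM (0.89, and 0.96 without both). Ccl5 lost its call when Cre- MPTP replicate 3 or any of Cre+ MPTP replicates 1, 3 and 4 was left out.

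Among genes of alarmins and their receptors, 5 of 19 were lower, S100a8, S100a9, Fpr1, Fpr2 and Gpr84, and the median was -0.35. All of these but Gpr84 were already counted in the neutrophil list, so this is not a separate result. There were 2 calls without Cre+ MPTP replicate 1, 1 without replicate 3 and 3 without replicate 4. Without both libraries 6 were lower (median -0.45). In the complement list 4 of 19 were lower, C1ra (-2.47, -2.23 without both), C4b, C3 (-2.13, -2.40 without both) and the C1 inhibitor Serping1 (-1.12, -1.21 without both), and 6 were lower without both libraries. MHC class I genes gave 4 lower of 16 with all libraries and 7 without both, with H2-Q4 at 276, 47.3 and 89.4 CPM against 19.6, 18.1, 21.3 and 19.9 CPM. In this list there were 0 calls without Cre+ MPTP replicate 1 or replicate 3, and 1 without replicate 2 or replicate 4. The falls of H2-Q4, H2-K1 and the immunoproteasome subunit Psmb8 were -2.80, -1.75 and -2.69 with all libraries and -1.80, -0.91 and -1.16 without both. Reads of H2 genes may be shared among their close copies. In MHC class II 0 of 9 were called in both fits, with H2-DMa at 0.12 (0.42) and Cd74 at 0.57 (-0.0004), for which Cre+ MPTP replicate 4 had 13.8 CPM and the other 6 libraries 3.15 to 5.48 CPM.

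Interferon-inducible GTPases gave 1 call with all libraries, Gbp6 (-1.26, -1.43 without both), and 7 of 14 without both (median -0.95). Other interferon-stimulated genes gave 2 and 4 of 27, Lgals3bp (-0.88, -0.85 without both) and Bst2 (-2.06) with all libraries. Bst2 was not called without both (-1.04, adjusted p = 0.0874 in edgeR).

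The glucocorticoid response list had the second highest number of calls. Of 25 genes 13 were lower and 0 higher (median -1.80), and 21 were lower without both libraries (median -1.38). There was 1 call without Cre+ MPTP replicate 3, 2 without replicate 1 and 4 without replicate 4, and 21 without Cre- MPTP replicate 1. Sgk1, a kinase that glucocorticoids induce, had 280, 263 and 292 CPM in Cre- MPTP and 69.2, 119, 63.9 and 53.3 CPM in Cre+ MPTP libraries (-1.87, SE 0.303, adjusted p = 0.0128 in edgeR, and -1.73 without both). Hif3a had 37.8, 35.4 and 34.2 CPM against 11.3, 14.7, 6.88 and 8.13 CPM (-1.80, and -1.68 without both). Mt1, a metallothionein, had 3630, 712 and 612 CPM against 163, 311, 179 and 155 CPM, and its fall was -3.03 with all libraries and -1.61 without both. Nr3c1, the glucocorticoid receptor, was not called (0.56, 0.35 without both). Of 18 genes of the circadian clock 0 were called in both fits, with Tef at -0.16 (-0.15) and Cry2 at -0.50 (-0.10). Several of these genes also answer to NF-kappaB or to cell stress, as Nfkbia and Cdkn1a do.

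The vascular lists held calls in both directions. Among endothelial identity genes 4 of 19 were higher and 0 lower, Tek, Ptprb, Myct1 and Kdr (median 0.03). Without both libraries 5 were higher, with the transcription factor Sox17 added (1.41). Kdr, a receptor of VEGF, had a log2 fold change of 1.28, and of 0.77 without both. Ptprb, a phosphatase that restrains TIE2, had 6.61, 20.6 and 19.8 CPM against 49.2, 51, 63.9 and 64.1 CPM (1.85, and 1.44 without both). Myct1, a transcript near the limit of detection, was at 0, 0.0792 and 0.198 CPM against 0.702 to 2.14 CPM (3.20, and 2.37 without both). Of the barrier genes 3 of 22 were higher, Slco1c1, Slc38a5 and Cav1 (2.11, 1.38 without both), and 1 was lower, the lipid transporter Mfsd2a, at 75.5, 61 and 51.5 CPM against 27.3, 37.8, 20.9 and 19.4 CPM (-1.25, and -0.98 without both). Without both libraries 4 barrier genes were higher and 2 lower. Cldn5, the main claudin of the barrier, lay at 49 and 60.3 CPM in Cre- MPTP replicates 2 and 3, at 56.4 to 62.4 CPM in Cre+ MPTP libraries and at 298 CPM in Cre- MPTP replicate 1.

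Of the arterial genes 3 of 15 were higher, Edn3, Alpl (1.24, 1.16 without both) and Gkn3 (3.14, 3.06 without both), and 3 were higher without both. Of the angiogenic factors 5 of 21 were higher and 1 lower, and without both 5 and 2. Apln, the peptide apelin, had 18.3, 26.9 and 18.4 CPM against 40.7, 45.9, 41.8 and 36.9 CPM (0.96, and 0.91 without both), and the lipase inhibitor Angptl4 was the one that was lower (-2.26, -1.77 without both). Genes of endothelial activation went the other way, with 8 of 20 lower and 1, Apln, higher (median -1.20), and 11 lower and 1 higher without both libraries (median -1.27). There was 1 call without Cre+ MPTP replicate 1 or replicate 3, and 2 without replicate 4. They included Icam1, Ackr1, Socs3, the deubiquitinase Tnfaip3 (-1.63, -1.60 without both) and Selp, the P-selectin of activated endothelium, at 5.09, 10.8 and 17.5 CPM against 0.739, 3.08, 0.266 and 1.3 CPM (-3.08, and -3.45 without both). Pericyte genes gave 0 calls of 15 with all libraries, with Rgs5 at 1.12 (0.56) and Vtn at 0.59 (0.39), and fibroblast genes 0 of 20, with Spp1 at -0.78 (-1.005) and Col4a2 at -0.66 (-0.44). Without both libraries Rgs5, a regulator of G protein signalling in pericytes, was called higher (adjusted p = 0.0406 in edgeR), and the matrix genes Col4a1 (-0.97) and Dcn (-1.50) were called lower.

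Myelin and oligodendrocyte genes were higher in 7 of 25 and lower in none (median 0.73), and 13 were higher without both (median 0.57). There was 1 call without Cre+ MPTP replicate 1, 2 without replicate 3, 3 without replicate 4, 4 without replicate 2 and 11 without Cre- MPTP replicate 1 or replicate 2. Gpr37, a receptor of myelinating oligodendrocytes, had 73.9, 79 and 69.3 CPM against 150, 148, 140 and 127 CPM, and was called in every fit that left libraries out (0.93, SE 0.121, adjusted p = 0.00666 in edgeR, and 0.97 without both). Lpar1, a lysophosphatidic acid receptor, had 14.8, 27.9 and 17.2 CPM against 48.7, 57.1, 42.6 and 45.5 CPM (1.27, 1.13 without both), and the connexin Gjb1 24.2, 24.4 and 18.6 CPM against 37.8, 44.8, 36.7 and 35.4 CPM (0.79, 0.88 without both). The major myelin gene Mbp (0.09, 0.19 without both) was not called. Of 15 precursor genes 0 were called with all libraries. Bcas1 had 0.37 (0.21 without both) and Olig1 had -0.85, and without both Olig1 (0.65, adjusted p = 0.0236 in edgeR) and the transcription factor Sox10 (0.62) were called higher. Olig1 stood at 832 CPM in Cre- MPTP replicate 1 against 127 and 134 CPM in the other controls.

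The dopaminergic, pan-neuronal, and serotonergic and peptide lists had no called member with all libraries. Of 18 dopaminergic genes 0 were called, with Th at -0.25 (-0.15), Slc6a3 at 0.40 (0.012), Ddc at -0.23 (-0.47) and Aldh1a1 at 0.29 (-0.0097). Without both libraries Ddc, the decarboxylase of dopamine and serotonin synthesis, was lower (-0.47, adjusted p = 0.0189 in edgeR), at 124 and 149 CPM in Cre- MPTP replicates 2 and 3 and 93.8 to 106 CPM in Cre+ MPTP replicates 1 to 3. Pan-neuronal genes gave 0 of 18, with Snap25 at 0.16 (-0.095) and Syp at -0.09 (-0.04), and serotonergic and peptide genes 0 of 16, with Tph2 at 0.49 (0.18) and Sst at -1.15 (0.18). Genes of the respiratory chain gave 0 of 24, with mt-Co1 at 0.48 (-0.013) and mt-Cytb at 0.58 (0.03), and these 3 lists gave 0 calls without both. In Cre- MPTP replicate 1 mt-Co1 stood at 6130 CPM against 15900 to 23400 CPM in the other MPTP libraries. Erythrocyte genes gave 0 of 7, with Bpgm at 0.42 (0.16), choroid plexus genes 0 of 12, with Foxj1 at -0.82 (0.32) and Otx2 at 0.25 (0.26), and pituitary genes 0 of 8, with Chga at -0.78 (0.022) and Gh at 0.89 (1.76), and none was called without both. Cell cycle genes gave 0 of 17 with all libraries, with Pcna at -0.17 (-0.23), and without both the cyclin Ccnd1 was called higher (0.50 with all libraries, 0.79 without both, adjusted p = 0.00108 in edgeR).

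Among the other lists, metalloproteinases and their inhibitors were lower in 4 of 19, including Adamts1 at 105, 120 and 71.2 CPM against 22.2, 54.8, 24.9 and 22.4 CPM (-1.67, -1.50 without both) and Adamts9 (-1.63, -1.86 without both), and as many without both. Plaur, the urokinase receptor, and Pros1, protein S, were the 2 of 18 coagulation genes that were lower (-3.11 and -0.75, and -2.46 and -0.84 without both), and 4 were lower without both. Of the metallothionein and iron genes 5 of 17 were lower and 1 was higher, the iron exporter Slc40a1, at 1.63, 4.48 and 3.96 CPM against 8.13, 11, 10.2 and 11.8 CPM (1.57, and 1.20 without both). Without both libraries 7 were lower and 3 higher. Hmox1, heme oxygenase 1, had 10.5, 9.15 and 10.5 CPM against 5.1, 6.15, 5.55 and 4.81 CPM (-0.90, -0.82 without both), and with Ucp2 (-1.29, -1.02 without both) made up the 2 of 22 antioxidant genes that were lower in both fits. Apod, a lipocalin that carries lipids, had 829, 1060 and 1680 CPM against 440, 553, 399 and 360 CPM (-1.44, and -1.57 without both), and Ch25h, cholesterol 25-hydroxylase, was also lower (-3.25, -2.57 without both). These were the 2 of 22 genes of lipid transport that were lower, and without both the phospholipid transfer protein Pltp (1.31) was higher. The small heat shock protein Hspb1 (-3.14, -1.57 without both) was the 1 of 21 in its list, and Ier3 (-2.12, -1.53 without both) the 1 of 22 immediate-early genes. Without both libraries Hspb8 (-0.66) was also lower and the immediate-early gene Arc (0.71) higher. Hspb1 stood at 388 CPM in Cre- MPTP replicate 1 against 57.5 and 34.5 CPM in the other controls, and its fall was -1.57 without both.

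The same genotypes were compared after saline, with 6 libraries that are not averaged in the MPTP comparison. They do enter its estimate of the spread, and leaving out 1 of them changed the calls after MPTP to 51 to 71 higher and 111 to 134 lower, so that the comparisons are not independent. None of the 19360 genes was called there (0%), with 176 at an unadjusted p under 0.05, while DESeq2 called 2 genes, limma voom 3 and edgeR on the 6 Saline libraries alone 6. Of the genes called after MPTP, the 100 higher had a median log2 fold change of 0.00 in Saline and 50 of them were on the same side, and the 199 lower had a median of 0.03 and 87 were on the same side. Over the 30 named rises and falls, the Saline log2 fold changes ran from -0.40 to 0.43, and their smallest unadjusted p was 0.0841. Whether the difference after MPTP exceeded that after saline was tested as an interaction, which called 2 of 19360 genes (0.0103%), P2ry12 (2.26, SE 0.258, adjusted p = 0.024 in edgeR) and Edn3 (2.43, SE 0.31, adjusted p = 0.0381 in edgeR). Both calls were lost, with 0 genes called, without Cre+ MPTP replicate 1, 3 or 4, without Cre- MPTP replicate 3 and without 5 of the 6 Saline libraries, for which the smallest adjusted p in edgeR was 0.0649 to 0.155. DESeq2 called 223 genes for the interaction and limma voom 689. For the other 28 named genes the edgeR adjusted p of the interaction was 0.108 to 0.269, so that a difference between the treatments was not shown for them with all libraries. Without both libraries the interaction called 220 genes, 101 positive and 119 negative, led by Slco1c1 (2.07), Itm2a (1.79), P2ry12 (2.11) and Cmtm5 (1.15).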

How the data were processed

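Total RNA of whole midbrain was sequenced as stranded libraries with reads of 150 bases from both ends. Per the methods and processing notes, the authors used Trimmomatic 0.36 for trimming and STAR 2.5.2b for alignment to GRCm38, counted unique hits with featureCounts of Subread 1.5.2 and tested with DESeq2. The deposited values are whole-number counts for 49315 genes per library, without normalization. The strand setting of the counting is not given in the sources used here. Symbols and positions came from GENCODE M21 for 49056 genes, and 259 had no match.

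From the counts, edgeR 4.0.16 in R 4.3.3 was fitted over all 13 libraries with TMM scaling, 1 term per group and a filter of 10 or more counts in 3 or more libraries, and the quasi-likelihood test was used with Benjamini-Hochberg adjustment over all 19360 genes (threshold 0.05). SE stands for the size of a log2 fold change (Cre+ minus Cre-) divided by the square root of F. "Without both" means without Cre- MPTP replicate 1 and Cre+ MPTP replicate 4. DESeq2 1.42.0, limma 3.58.1 (voom with quality weights), other filters and scaling, a replicate block, thinning to the shallowest library and leave-one-out fits were alternatives. Removal of a GC trend and leaving out Saline libraries were added after the data were seen. The fits were tested on simulated data in which all groups shared the same spread. That test does not cover the unequal spread of the groups here. Totals of 11489150 to 29397278 counts limit genes at few counts, such as Ripk3.

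The members, lists and named genes were chosen with earlier results of these data known. Named were Ripk3, the 15 largest rises and falls called in every fit that left MPTP libraries out (groups not overlapping, at least 1 CPM in the higher group), up to 3 called genes per list and direction by smallest p, and the 2 most abundant members of lists without a call. Of these, 1 gene is not reported here. Other members named beside them were picked for their role. Promoters came from RefSeq (GRCm38.p6). No set test was run. Figures were drawn with matplotlib 3.10.9.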

Additional observations from a re-analysis of the deposited data

Results flagged for a closer look

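In Cre+ MPTP libraries, 1 library stood apart from the other 3 for several named genes, by a gap to its nearest neighbour past the critical value of Dixon's test. The gap is taken relative to the range of the group, so it can be small in CPM. Chance gives such a gap in about 1 of 20 groups. Replicate 2 was the high one for Gfap (655 CPM), Fkbp5 (54.3), Tnfaip3 (9.06), Serpina3m (0.336), Cebpd (12.1), Nfkbiz (8.73), Cdkn1a (68.9), Ccl5 (3.69), Adamts1 (54.8), Plaur (3.64) and Mt1 (311 CPM), each on the side of the Cre- MPTP libraries. Replicate 4 was the high one for the muscle genes Myh6 (3300 CPM) and Ryr2 (379), the mitochondrial genes mt-Co1 (23400) and mt-Cytb (11400), and Myct1 (2.14), Cav1 (45.3) and Cxcl12 (52.7 CPM), and the low one for Trbc2 (0.534 CPM). Replicate 1 was the high one for Syp (1050 CPM), where the other Cre+ MPTP libraries had 1020 CPM and the gap was small. The difference between genotypes was larger after MPTP than after saline for P2ry12 (2.26 on the log2 scale) and Edn3 (2.43), by the test of the interaction in edgeR. Both calls were lost without Cre+ MPTP replicate 1, 3 or 4, without Cre- MPTP replicate 3 and without 5 of the 6 Saline libraries. No cause was tested for any of these.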

How the results depend on the processing

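The counts of genes higher and lower in Cre+ MPTP mice (100 and 199) moved to 211 and 346 without Cre- MPTP replicate 1 and Cre+ MPTP replicate 4, to 269 and 565 with DESeq2 on all libraries, to 488 and 736 with limma voom on all and 367 and 583 on the 7 MPTP libraries, to 159 and 302 with a GC trend removed, and to 0 and 0 with edgeR on the 7 MPTP libraries. Leaving out 1 MPTP or Saline library gave 18 to 245 genes higher and 21 to 1581 lower. Other filters, DESeq2 size factors and thinning stayed within 1.5 times. The edgeR fit of 7 libraries with a replicate block called 0 and 0. The replicate numbers name mice only, and the correlations of same-numbered deviations were -0.008, 0.162 and 0.022. The Saline count (0) was 2 with DESeq2, 3 with limma voom, 6 with edgeR on the 6 Saline libraries and 0 without each Saline library. The interaction count (2) was 223 with DESeq2, 689 with limma voom, 220 without both libraries, 10 with no count filter, 1 with DESeq2 size factors or thinning, 0 to 199 without 1 MPTP library and 0 or 1 without 1 Saline library. Of 88 called named genes 0 changed direction in 2260 values, and 466 values lost the call. Where tested, the 30 named rises and falls lost it only with edgeR on the 7 MPTP libraries, with or without the block. Not all were tested when at least 10 counts were required in all 7 MPTP libraries. Siglech, Fcrls, Slc38a5 and Ly6g6f had 5, 9, 9 and 1 counts in Cre- MPTP replicate 1. Of 384 list counts 172 moved by over 1.5 times.

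Uncalled named genes changed direction as follows, on the log2 scale with the reported value first in parentheses. Ighm (0.23) had -0.045 (without both), -0.042 (on the 5 MPTP libraries), -0.14 (voom on 13), -0.12 (voom on 7) and -0.14 to 1.00 with 1 library left out. Aldh1a1 (0.29) had -0.0097 (without both), -0.0074 (on the 5 MPTP libraries), -0.0305 (voom on 13), -0.033 (voom on 7) and -0.025 to 0.52 with 1 library left out. Ddc (-0.23) had -0.50 to 0.0096 with 1 library left out. Snap25 (0.16) had -0.095 (without both), -0.11 (GC trend removed), -0.093 (on the 5 MPTP libraries), -0.099 (voom on 13), -0.11 (voom on 7) and -0.13 to 0.35 with 1 library left out. Sst (-1.15) had 0.18 (without both), 0.18 (on the 5 MPTP libraries), 0.21 (voom on 13), 0.21 (voom on 7) and -1.54 to 0.20 with 1 library left out. Olig1 (-0.85) had 0.65 (without both), 0.21 (GC trend removed), 0.65 (on the 5 MPTP libraries), 0.62 (voom on 13), 0.62 (voom on 7) and -1.24 to 0.63 with 1 library left out. H2-DMa (0.12) had -0.087 to 0.41 with 1 library left out. Cd74 (0.57) had -0.0004 (without both), -0.12 (replicate block) and -0.066 to 0.80 with 1 library left out. mt-Co1 (0.48) had -0.013 (without both) and -0.011 (on the 5 MPTP libraries). Foxj1 (-0.82) had 0.32 (without both), 0.11 (GC trend removed), 0.32 (on the 5 MPTP libraries), 0.29 (voom on 13), 0.29 (voom on 7) and -1.16 to 0.29 with 1 library left out. Chga (-0.78) had 0.022 (without both), 0.025 (on the 5 MPTP libraries) and 0.0001 (voom on 13). The causes were not tested.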
